A study of Mus musculus with 20 samples.

Results

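The nuclear genes for the subunits of the mitochondrial respiratory chain and of ATP synthase were followed across 20 microarrays of samples labelled as mouse adipocytes. Members were taken by gene symbol: every Nduf, Sdh, Uqcr, Cox4 to Cox8 and Atp5 subunit gene with Cyc1 and Cycs, without assembly factors and without Cox7a1 and Cox8b. The rule found 85 of the 19505 genes with a value, each read by 1 probe. They are 38 genes of complex I, 4 of complex II, 9 of complex III, the cytochrome c gene Cycs, 16 genes of complex IV and 17 of complex V. The 13 subunits encoded by mitochondrial DNA were not analysed here.

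Complexes I to IV hand electrons from NADH and succinate to oxygen, and complexes I, III and IV pump protons across the inner mitochondrial membrane, and complex V, the ATP synthase, lets the protons back to make ATP. Cytochrome c is the small protein that carries electrons from complex III to complex IV. White fat cells use this machinery to supply the energy and intermediates for storing and releasing lipid, and its subunit genes are known to share activators such as NRF1, GABP, the ERR receptors and the coactivator PGC-1α.

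The labels describe adipocytes obtained from mouse adipose tissue and differentiated in vitro, and give each sample a tissue called g or sc, names that the labels do not spell out. There were 4 groups of 5 arrays: Olfm2 knockout g (KO g), wild-type g (WT g), Olfm2 knockout sc (KO sc) and wild-type sc (WT sc). The strain, age and sex of the mice, the kind of knockout allele and whether the arrays of a group came from separate mice or cultures are not stated in the labels, so p-values cover only the sample-to-sample spread, which may be technical. The design text of the series names a gene other than Olfm2 for the sc arrays, whereas the labels of all knockout samples name Olfm2.

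Olfm2 itself, which codes for the secreted protein olfactomedin 2, read 3.44, 3.61, 3.36, 3.56 and 3.72 in KO g, against 4.30, 4.60, 4.08, 4.54 and 4.17 in WT g (log2 values, as all values here unless stated). It read 3.49, 2.98, 3.58, 2.67 and 3.36 in KO sc, against 4.28, 5.25, 5.02, 5.21 and 4.62 in WT sc. All KO arrays lay below all WT arrays in both tissues, with a difference of -0.80 in g (limma, adjusted p = 0.00784) and of -1.66 in sc (adjusted p = 0.000152). On every KO and WT g array Olfm2 lay below that array's median of the negative control probes, which ran from 4.45 to 4.84 over the 20 arrays, so the size of the difference is limited by background. The mature adipocyte markers (18 of 20 measured, among them Adipoq, Plin1 and Fabp4) averaged 11.15 to 11.36 in KO g, 10.67 to 11.04 in WT g, 11.36 to 11.54 in KO sc and 11.17 to 11.49 in WT sc, far above the array medians of 5.78 to 5.92. Markers of other cell types were also present, although the labels describe adipocytes differentiated in vitro. The mean of 19 macrophage markers ran from 7.82 to 10.13 over the 20 arrays. The mean of 16 hepatocyte markers passed 7 on 4 KO g, 2 WT g and 2 KO sc arrays. That of 16 skeletal muscle markers did so on 2 KO sc and 2 WT sc arrays. That of 13 lymphocyte markers did so on 1 WT g, 2 KO sc and 1 WT sc arrays. The array sc307WT stood apart among the members, with a mean over the 85 genes of 9.33 against 9.10 to 9.19 on the other 4 WT sc arrays.

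In g, respiratory chain genes read higher in knockout than in wild-type arrays, with the highest median differences in complexes I and III. Of the 85 members, 26 were higher in KO g and 0 were lower at an adjusted p below 0.05 (limma on all 4 groups, Benjamini-Hochberg over all 19505 genes). Over all genes tested, 5.01% were called higher and 6.27% lower in the same comparison, against 30.6% of the members called higher. The median difference of the members was 0.21, and 79 of 85 were above 0, whereas the median over all genes was 0.02. At an unadjusted p below 0.05, 48 members were higher and 0 were lower, while 2340 of all 19505 genes were higher and 2362 lower. The 5 KO g arrays all lay above the 5 WT g arrays in 31 members, 22 of which were among the called, where 4.68% of all genes showed such a separation. They all lay below the WT g arrays in 2 members, Cox6a2 and Cox7b2, where 5.73% of all genes did so.

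The mean over all 85 genes was 9.03 ± 0.04 in KO g, 8.83 ± 0.04 in WT g, 9.17 ± 0.02 in KO sc and 9.18 ± 0.09 in WT sc (SD, n = 5 arrays each). The KO g arrays ran from 8.99 to 9.07 and the WT g arrays from 8.80 to 8.89, without overlap. WT g was thus the lowest of the 4 groups, KO g lay between WT g and both sc groups, and the sc groups overlapped.

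**Figure D1:**
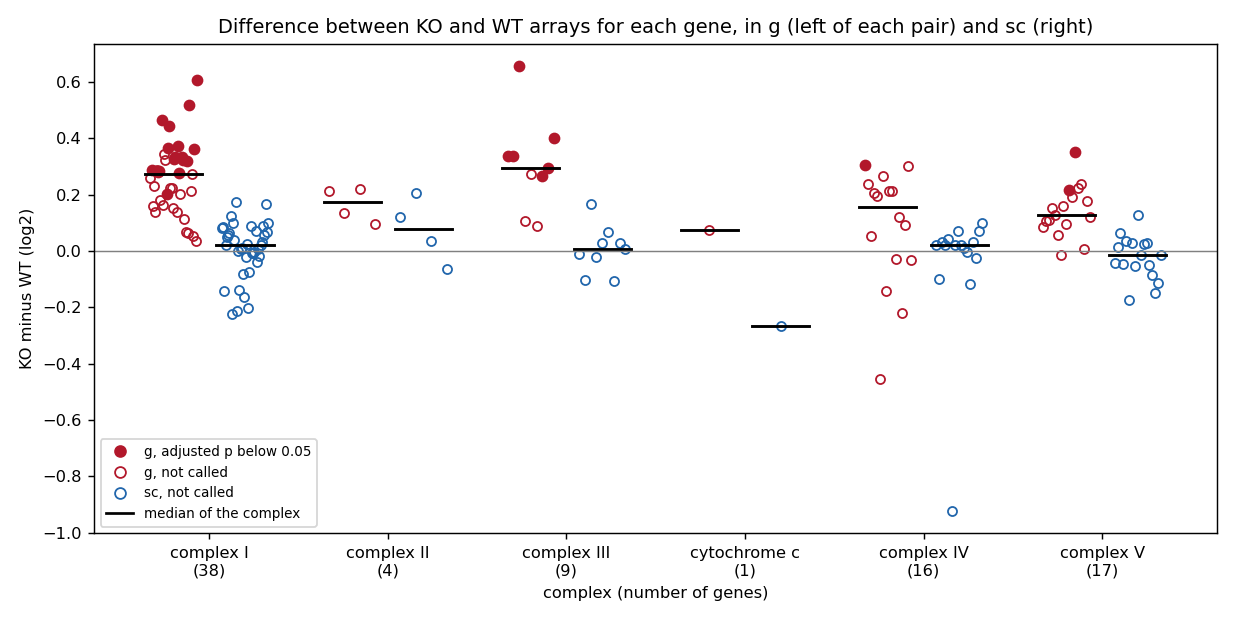
Difference between KO and WT arrays (log2, y axis) of each of the 85 genes, grouped by complex (x axis, number of genes in brackets), with g in red at the left of each pair and sc in blue at the right; filled points passed an adjusted p below 0.05 and black bars are medians. In g all 38 genes of complex I and all 9 of complex III lie above 0, while the sc medians lie between -0.02 and 0.08 except for Cycs, the single gene of cytochrome c, at -0.27.

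The promoters of 4 of these genes are shown because the genes stand for the patterns described below: Uqcr11 and Ndufs5 had the lowest p in g of complexes III and I, Atp5k the lowest of complex V, and Atp5g2 was the single member called higher in g than in sc. Each window holds 300 bases around the RefSeq start site (build GRCm38.p6), all 4 on the minus strand, at chr10:80406772-80407071 for Uqcr11, chr4:123718137-123718436 for Ndufs5, chr5:108434350-108434649 for Atp5k and chr15:102670998-102671297 for Atp5g2. Capitals mark the letters of 3 motifs on either strand, GCGCATGC (the core read by NRF1), CCGGAAG (ETS factors such as GABP) and AAGGTCA (ERR receptors).
Uqcr11: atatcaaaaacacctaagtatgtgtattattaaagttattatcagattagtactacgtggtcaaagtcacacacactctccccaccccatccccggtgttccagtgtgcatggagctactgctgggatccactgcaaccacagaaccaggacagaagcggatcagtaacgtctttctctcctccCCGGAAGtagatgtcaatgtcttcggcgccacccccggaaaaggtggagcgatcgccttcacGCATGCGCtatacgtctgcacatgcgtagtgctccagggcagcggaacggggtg
Ndufs5: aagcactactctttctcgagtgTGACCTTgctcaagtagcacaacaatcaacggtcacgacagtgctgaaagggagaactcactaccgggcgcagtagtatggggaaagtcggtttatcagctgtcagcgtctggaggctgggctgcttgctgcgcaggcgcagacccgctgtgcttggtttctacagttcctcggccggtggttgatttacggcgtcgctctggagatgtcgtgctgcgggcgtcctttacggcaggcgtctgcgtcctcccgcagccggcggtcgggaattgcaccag
Atp5k: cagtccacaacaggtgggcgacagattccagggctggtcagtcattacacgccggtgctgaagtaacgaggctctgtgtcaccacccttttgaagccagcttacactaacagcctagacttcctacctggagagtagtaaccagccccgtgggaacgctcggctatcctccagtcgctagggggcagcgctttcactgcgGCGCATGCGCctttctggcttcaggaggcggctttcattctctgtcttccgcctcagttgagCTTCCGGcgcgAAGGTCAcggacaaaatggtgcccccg
Atp5g2: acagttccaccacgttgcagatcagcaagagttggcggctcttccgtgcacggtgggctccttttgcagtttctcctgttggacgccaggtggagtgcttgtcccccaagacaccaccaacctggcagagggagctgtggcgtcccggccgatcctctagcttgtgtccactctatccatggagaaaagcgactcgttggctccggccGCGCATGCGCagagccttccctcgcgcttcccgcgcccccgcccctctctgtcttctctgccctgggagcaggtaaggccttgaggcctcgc
The Uqcr11 window holds 1 ETS and 1 NRF1 match, that of Ndufs5 a single ERR match, that of Atp5k all 3 motifs, and that of Atp5g2 the NRF1 core alone. In Atp5k and Atp5g2 the NRF1 core matches on both strands, and the overlapping matches give 10 capitals.

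RefSeq promoter windows were matched for 69 of the 85 members, in 74 windows, since some genes have several starts. The NRF1 core stood in 14.9% of them, against 3.69% of the 18928 windows of all genes tested. The ETS motif stood in 23.0% of the members' windows and 11.9% of all windows, the ERR motif in 10.8% and 3.91%, and AAGATGGC, the motif of YY1, in 13.5% and 3.12%. The CCAAT box (CCAAT) stood in 41.9% and 37.9% and the GC box (GGGCGG) in 41.9% and 48.1%. Among the 24 windows of members called higher in KO g the NRF1 core stood in 8.33%, and in 18.0% of the 50 windows of the other members. The ERR motif stood in 12.5% and 10.0% of the same windows and the ETS motif in 29.2% and 20.0%. The YY1 motif stood in 16.7% and 12.0%, the CCAAT box in 16.7% and 54.0% and the GC box in 41.7% and 42.0%. A match describes the letters of a window, and these shares were not tested.

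Complex I, which takes electrons from NADH, held 17 of the 26 genes called in g, and all 38 of its genes were above 0 in KO g against WT g with a median difference of 0.27. Ndufs5, an accessory subunit gene, read 8.48, 8.36, 8.57, 8.50 and 8.83 in KO g, against 8.04, 8.07, 8.02, 7.98 and 8.04 in WT g, a difference of 0.52 with SE 0.10 (limma, adjusted p = 0.00207). Every KO g array was above every WT g array, and the 5 WT g values were close together. On the sc arrays Ndufs5 read 8.65, 8.62, 8.68, 8.72 and 8.94 in KO sc, against 8.40, 8.70, 8.95, 8.64 and 8.81 in WT sc. The sc groups overlapped (difference 0.02, adjusted p = 0.971).

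Ndufv1 codes for the core subunit that binds NADH and passes its electrons on. It read 9.52, 9.46, 9.70, 9.49 and 9.65 in KO g, against 9.24, 9.29, 9.16, 9.21 and 9.11 in WT g (difference 0.36, SE 0.07, limma adjusted p = 0.00316), with no overlap. In sc it read 9.85, 10.00, 10.01, 9.79 and 9.99 in KO, against 9.77, 9.65, 9.91, 9.75 and 9.72 in WT. There the groups overlapped, and the difference of 0.17 did not pass (adjusted p = 0.426, unadjusted p = 0.0363).

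Ndufv3, an accessory subunit gene of the same NADH-oxidising part of the complex, had the largest difference of the complex I genes in g. It read 7.98, 7.83, 8.07, 7.93 and 7.97 in KO g, against 7.57, 7.52, 7.27, 7.15 and 7.24 in WT g, which is 0.61 higher with SE 0.13 (limma, adjusted p = 0.00355). All KO g arrays lay above all WT g arrays, and in sc the difference was 0.10 (adjusted p = 0.86) with values from 7.63 to 8.27 in KO and from 7.58 to 8.10 in WT.

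The 14 other complex I genes called in g differed by 0.20 to 0.46. They included Ndufs3, a core subunit gene (0.32), Ndufab1, which codes for the mitochondrial acyl carrier protein (0.37), and Ndufa5 (0.46) and Ndufb10 (0.44), both accessory subunit genes. Ndufa4, grouped here by its name and known as a subunit of complex IV, differed by 0.28. Ndufb4 and Ndufb4b are closely related copies that both read 0.33 higher, and their probes may read each other's transcripts. Of the 6 core subunit genes measured, 2 were called (Ndufs3 and Ndufv1), and of the 32 other genes of the complex 15 were called. The core genes Ndufs1, Ndufs8 and Ndufv2 differed by 0.07, 0.05 and 0.03 and were not called (adjusted p = 0.733, 0.786 and 0.891).

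Complex II, the succinate dehydrogenase that also belongs to the citric acid cycle, had 0 of 4 genes called in g and 2 at an unadjusted p below 0.05. The flavoprotein gene Sdha read 8.53, 8.64, 8.88, 8.74 and 8.87 in KO g, against 8.50, 8.51, 8.51, 8.57 and 8.53 in WT g (difference 0.21, limma adjusted p = 0.0861). The lowest KO g array lay within the WT g values and the other 4 lay above them. The membrane anchor genes Sdhc and Sdhd differed by 0.22 and 0.10 (adjusted p = 0.0903 and 0.513), and the iron-sulfur subunit gene Sdhb by 0.14 (adjusted p = 0.42).

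Complex III, which takes electrons from ubiquinol to cytochrome c, had 6 of 9 genes called higher in KO g, with a median difference of 0.29. Uqcr11, which codes for its smallest subunit, read 7.65, 7.84, 8.25, 7.93 and 7.75 in KO g, against 7.21, 7.30, 7.05, 7.32 and 7.26 in WT g. The groups did not overlap, and the difference of 0.66 with SE 0.11 (1.57-fold, limma adjusted p = 0.000711) was the largest of all 85 members. In sc Uqcr11 read 7.87, 7.87, 8.01, 8.00 and 7.82 in KO, against 7.66, 7.67, 8.08, 7.79 and 7.54 in WT, where the groups overlapped (difference 0.17, adjusted p = 0.653).

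Uqcr10, another small subunit gene, read 8.66, 8.53, 8.53, 8.80 and 8.58 in KO g, against 8.43, 8.31, 8.26, 8.16 and 8.23 in WT g (difference 0.34, SE 0.09, limma adjusted p = 0.0187). Uqcrh, the hinge protein gene, read 10.42, 10.19, 10.47, 10.30 and 10.22 in KO g, against 10.05, 10.13, 10.02, 9.81 and 10.13 in WT g (difference 0.29, SE 0.09, adjusted p = 0.0307). In both genes the g groups were apart. The other called genes of the complex were Uqcrq (0.40), Uqcrfs1, which codes for the Rieske iron-sulfur protein (0.27), and Cyc1, which codes for cytochrome c1 (0.34, adjusted p = 0.0468). The genes of the large core proteins Uqcrc1 and Uqcrc2 and the small subunit gene Uqcrb differed by 0.27, 0.09 and 0.11 and were not called.

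Cycs codes for cytochrome c and was the member with the lowest p in sc. It read 10.55, 10.76, 10.78, 10.75 and 10.89 in KO sc, against 11.04, 10.93, 11.08, 11.08 and 10.94 in WT sc. Every KO sc array lay below every WT sc array, a separation that 1.53% of all genes showed in this direction, and the difference was -0.27 with SE 0.07. It did not pass the adjusted threshold (limma, adjusted p = 0.104). In g Cycs read 10.52, 10.59, 10.44, 10.55 and 10.63 in KO, against 10.52, 10.46, 10.39, 10.57 and 10.42 in WT, and these values overlapped (difference 0.08, adjusted p = 0.588).

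Complex IV, the oxidase that passes electrons to oxygen, had 1 of 16 genes called higher in KO g and a median difference of 0.16. This share of 6.25% was near the 5.01% of all genes called higher. Without the 5 isoform genes Cox4i2, Cox6a2, Cox6b2, Cox7b2 and Cox8c, 1 of 11 was called and the median was 0.21. The called gene was Cox4i1, the widely expressed isoform of subunit 4. It read 9.89, 9.77, 9.97, 9.80 and 9.75 in KO g, against 9.67, 9.52, 9.58, 9.38 and 9.51 in WT g, without overlap (difference 0.31, SE 0.09, limma adjusted p = 0.0286). Cox8a came close with 0.30 (adjusted p = 0.0523), and Cox5b and Cox6c, each differing by 0.21, had adjusted p = 0.0721 and 0.122.

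Of the 5 tissue isoforms of complex IV, 4 read below 0 in KO g against WT g and none was called. Cox6a2, the isoform of heart and skeletal muscle, read 6.34, 6.36, 6.18, 6.25 and 6.16 in KO g, against 6.79, 6.82, 6.50, 6.72 and 6.73 in WT g. All KO g arrays lay below all WT g arrays, yet the difference of -0.45 had an SE of 0.50 and was not called (limma, adjusted p = 0.642). The fit shares 1 spread among the 4 groups, so this SE mostly reflects the sc arrays. The SD of Cox6a2 was 0.09 in KO g and 0.13 in WT g, against 0.58 in KO sc and 1.62 in WT sc. In sc Cox6a2 read 6.05, 6.16, 7.36, 6.01 and 6.73 in KO, against 10.07, 6.26, 7.77, 6.31 and 6.50 in WT.

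The 4 sc arrays with the highest Cox6a2 values were the 4 whose skeletal muscle markers averaged over 7. Its partner Cox6a1 differed by 0.20 in g (adjusted p = 0.226). Cox7b2, Cox6b2 and Cox8c, isoforms known from testis, differed by -0.22, -0.14 and -0.03 in g (adjusted p = 0.294, 0.692 and 0.913). Cox7b2 lay below the median of the negative control probes on 19 of 20 arrays and Cox6b2 on 1. Their widely expressed partners Cox7b, Cox6b1 and Cox8a differed by 0.12, 0.27 and 0.30. Cox4i2, an isoform of lung and hypoxic cells, differed by 0.24 (adjusted p = 0.325), and Ndufa4l2, a hypoxia-induced relative of Ndufa4, by 0.18 (adjusted p = 0.68). Cox7a2l, known for joining complexes III and IV into supercomplexes, averaged 8.36 in KO g, 8.39 in WT g, 8.36 in KO sc and 8.36 in WT sc, with differences of -0.03 in g and -0.01 in sc, and Cox7a2 differed by 0.21 in g (adjusted p = 0.19).

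Complex V had 2 of 17 genes called higher in KO g (11.8%, against 5.01% of all genes), and its median difference was 0.13. Atp5k, which codes for the membrane subunit e, read 7.45, 7.56, 7.69, 7.55 and 7.59 in KO g, against 7.36, 7.32, 7.18, 7.14 and 7.09 in WT g (difference 0.35, SE 0.09, limma adjusted p = 0.0142). Atp5j, which codes for coupling factor 6, read 9.65, 9.77, 9.88, 9.74 and 9.81 in KO g, against 9.62, 9.62, 9.56, 9.52 and 9.45 in WT g (difference 0.22, SE 0.07, adjusted p = 0.0449). Neither pair of groups overlapped, though the nearest Atp5j arrays were 9.65 and 9.62. Atp5a1 and Atp5b, the genes of the catalytic head, differed by 0.08 and 0.11, and Atp5c1 differed by 0.11. None of them was called. The 3 genes that code for the same subunit c, Atp5g1, Atp5g2 and Atp5g3, differed by 0.06, -0.02 and 0.16 in g and were not called either.

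**Figure D2:**
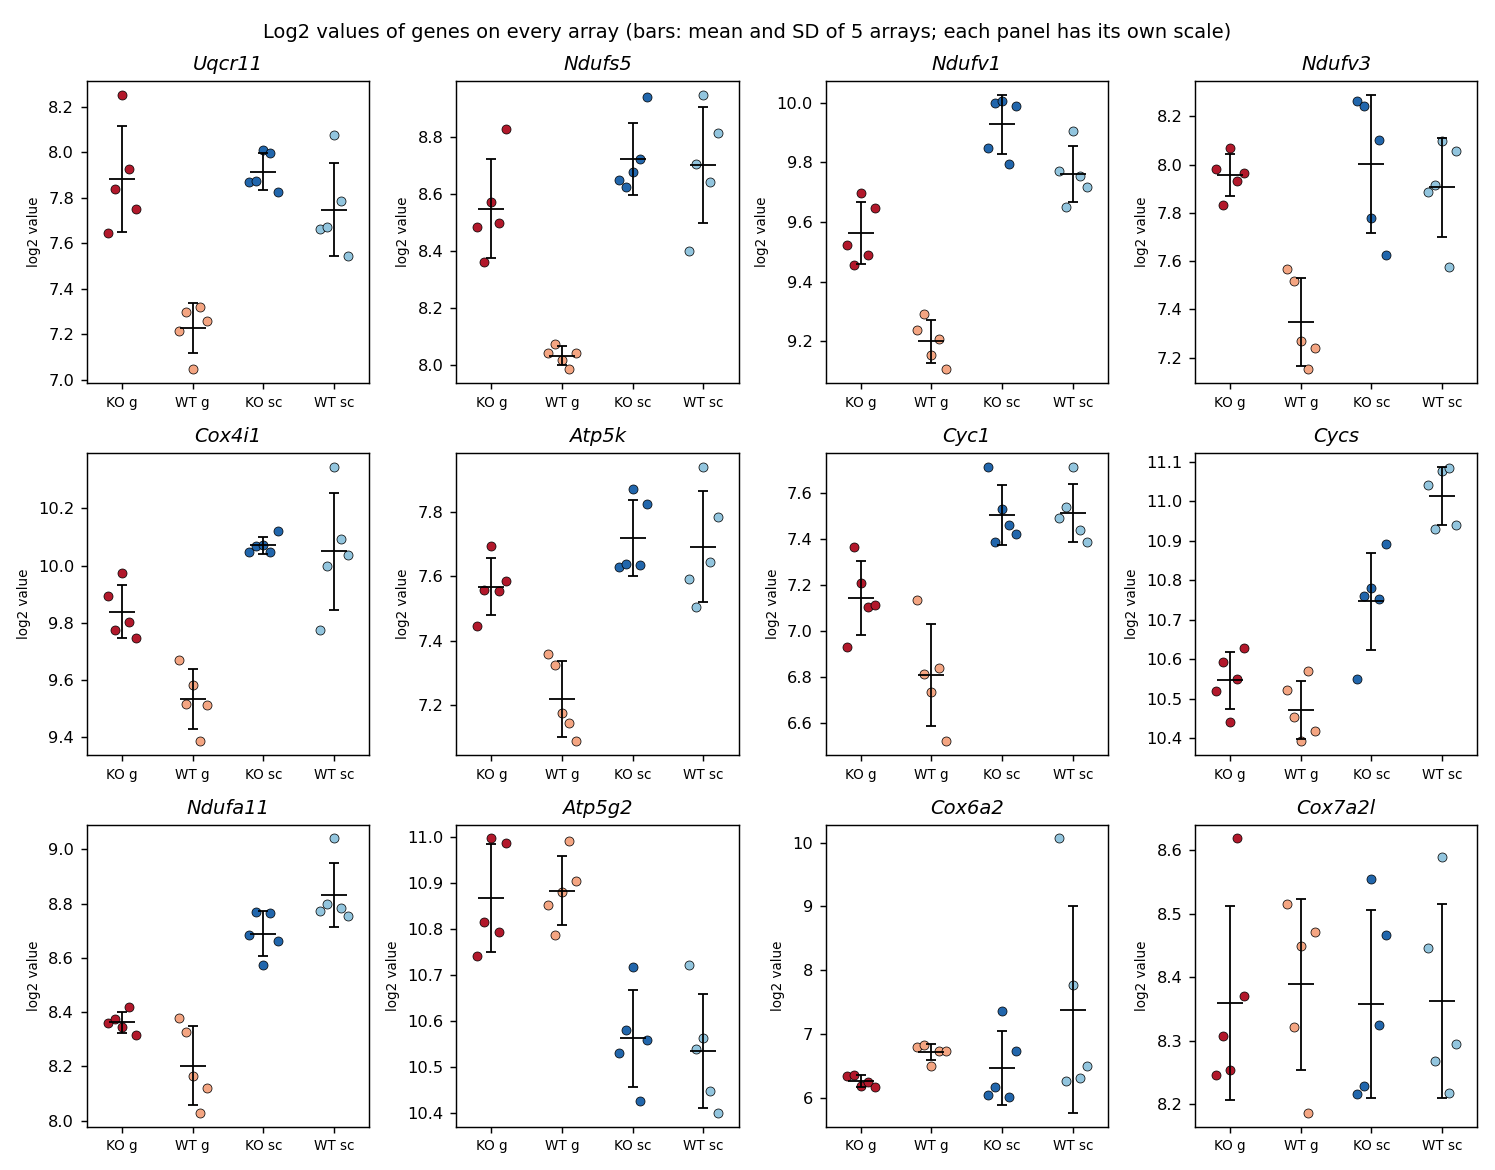
Log2 values (y axis) of 12 genes on each array, in the order KO g, WT g, KO sc and WT sc (x axis), with the mean and SD of the 5 arrays of each group as bars; each panel has its own scale. Uqcr11, Ndufs5, Ndufv1 and Ndufv3 show WT g apart and low, Atp5g2 shows both g groups above all sc arrays, and Cox6a2 shows the WT sc array at 10.07.

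In sc, 0 of the 85 members were called between knockout and wild-type arrays (limma, smallest adjusted p = 0.104), while 0.677% of all genes were called in either direction. At an unadjusted p below 0.05 there were 4 of 85 members, against 2017 of all 19505 genes. Of these members, Ndufv1 and Sdhb were higher in KO sc (0.17 and 0.20), and Cycs and Ndufb5 were lower (-0.27 and -0.20). The median difference was 0.02, with 50 members above 0. Leaving out any 1 array, sc307WT included, gave 0 calls as well.

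Whether the knockout difference itself differed between the tissues was tested by the interaction term, the KO effect in g minus the KO effect in sc. It called 0 of 85 members (limma, smallest adjusted p = 0.149, Ndufab1, 0.51 with SE 0.13) and 0.0769% of all genes in either direction. At an unadjusted p below 0.05 there were 31 members, each with the larger value in g, and 76 of 85 were above 0 with a median of 0.21. Of all 19505 genes, 1306 were higher and 1231 lower at that unadjusted threshold, and 10147 were above 0 with a median of 0.01. The pattern of calls in g and none in sc is thus not shown to be a difference between the tissues.

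Macrophage markers were lower and mature adipocyte markers higher in KO g than in WT g. Of 19 macrophage markers measured, 16 were called lower and 1 was called higher in KO g against WT g. Their mean ran from 8.44 to 9.39 in KO g and from 9.61 to 10.13 in WT g, well above the array medians in every sample. Of 18 mature adipocyte markers, 10 were called higher and 0 were called lower in KO g. Over all genes 5.01% were called higher and 6.27% lower. With the macrophage mean as a covariate the members' median difference was 0.19, 76 of 85 were above 0 and 0 were called, while 2 of all genes were called higher and 1 lower. With the mature adipocyte mean as a covariate the median was 0.20 and 0 members were called, with 6 of all genes called higher and 26 lower. In bulk samples, fewer cells of a type and less RNA per cell cannot be told apart.

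Liver transcripts were high on 4 of 5 KO g and 2 of 5 WT g arrays. With the mean of the hepatocyte markers as a covariate 14 members were called higher in KO g, with a median of 0.21, while 476 of all genes were called higher and 610 lower. Leaving out the 8 arrays with a hepatocyte mean over 7 left 1 KO g array, gave 0 called members, 16 higher at an unadjusted p below 0.05 and a median of 0.17, with the lone array assumed to vary like the others. Of all genes 13 were then called higher and 30 lower. The call count of 26 also fell to 16 without the array g307 WT and to 17 without g317 KO. The calls of Uqcr11, Ndufs5, Ndufv1, Ndufv3, Uqcr10 and Atp5k each held when any single array was left out, while that of Atp5j was lost in 14 of the 20 cases, that of Cox4i1 in 6 and that of Uqcrh in 5.

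**Figure D3:**
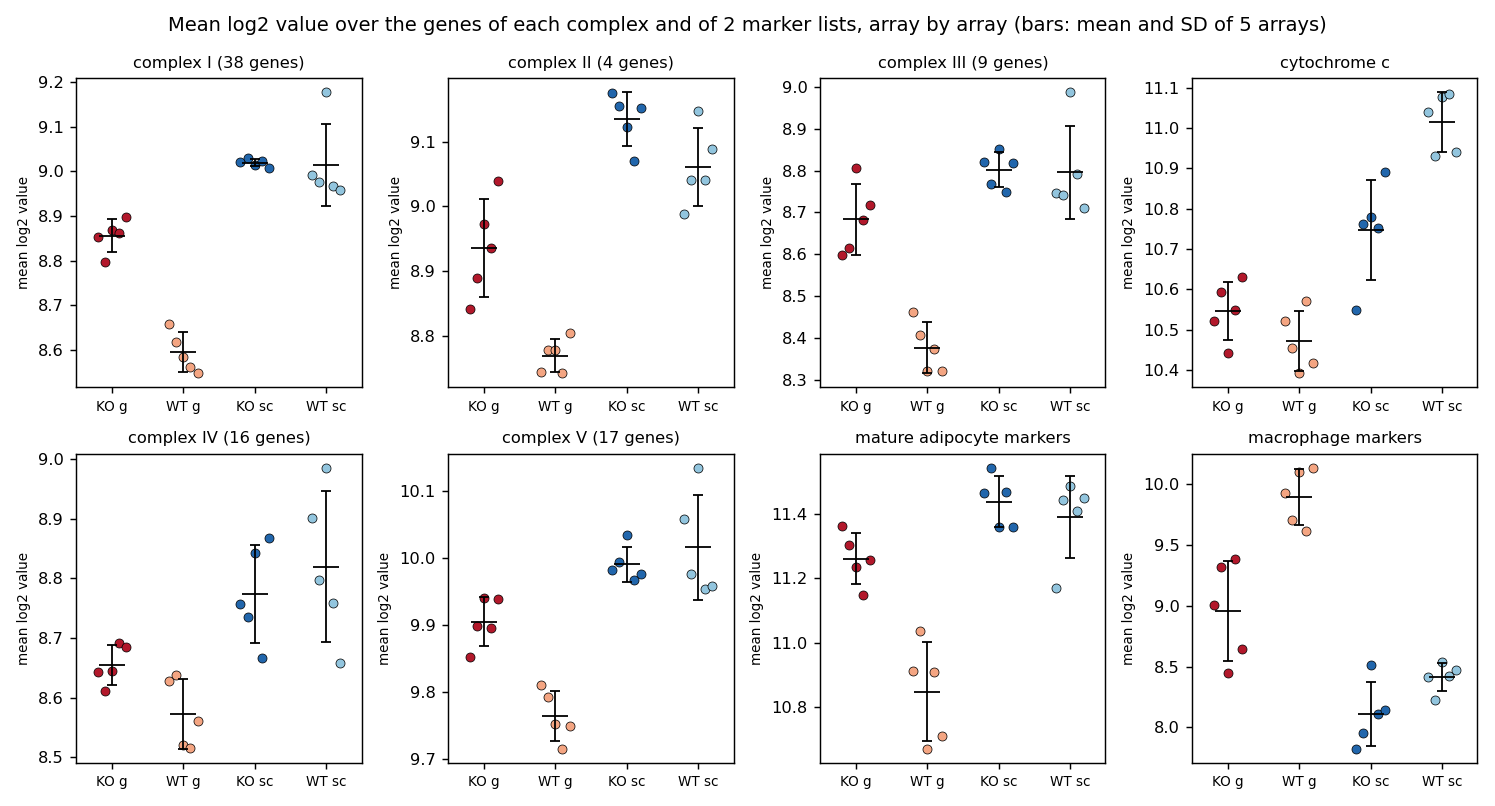
Mean log2 value (y axis) over the genes of each complex, over Cycs alone for cytochrome c, and over the mature adipocyte and macrophage markers, for each array of KO g, WT g, KO sc and WT sc (x axis), with bars for the mean and SD of 5 arrays. WT g is lowest for complexes I, II, III and V without touching KO g, lowest for adipocyte markers and highest for macrophage markers.

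Between the tissues, wild-type g arrays read lower than wild-type sc arrays for most of the respiratory chain. In WT g against WT sc, 63 of 85 members were lower and 1 was higher (limma, adjusted p below 0.05), where 8.48% of all genes were called lower and 9.3% higher. The median difference of the members was -0.35, against -0.04 over all genes. The 5 g arrays all lay below the 5 sc arrays in 52 members, and 7.36% of all genes showed this. By complex, 31 of 38 genes were lower in complex I, 3 of 4 in complex II, 8 of 9 in complex III, Cycs, 9 of 16 in complex IV and 11 of 17 in complex V.

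Cyc1 had the largest of these differences. It read 7.13, 6.81, 6.74, 6.84 and 6.52 in WT g, against 7.49, 7.54, 7.71, 7.44 and 7.39 in WT sc (difference -0.70, SE 0.11, limma adjusted p = 9.72e-05). Ndufab1 read 8.66, 8.71, 8.51, 8.73 and 8.48 in WT g, against 9.09, 9.44, 9.40, 9.31 and 9.25 in WT sc (difference -0.68, adjusted p = 2.8e-05). In neither gene did the groups overlap, nor did they in Ndufs5, whose values are given above (-0.67).

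Ndufa11 and Ndufa8, both accessory subunit genes of complex I, came next. Ndufa11 read 8.38, 8.33, 8.16, 8.03 and 8.12 in WT g, against 8.77, 8.80, 9.04, 8.79 and 8.76 in WT sc (difference -0.63, SE 0.08, limma adjusted p = 1.4e-05). Ndufa8 read 9.22, 9.25, 8.82, 9.13 and 8.92 in WT g, against 9.65, 9.77, 9.71, 9.58 and 9.72 in WT sc (difference -0.62, SE 0.11, adjusted p = 0.000402). All g arrays lay below all sc arrays in both. Cycs and Cox4i1, also called, differed by -0.54 and -0.52. The 21 members not called included Cox5a (-0.07), Atp5d (-0.08), Ndufv2 (-0.13) and Ndufs8 (-0.13).

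Atp5g2 was the single member called higher in g than in sc, in both genotypes. It read 10.74, 10.82, 11.00, 10.79 and 10.99 in KO g, against 10.53, 10.58, 10.72, 10.42 and 10.56 in KO sc (difference 0.30, SE 0.08, limma adjusted p = 0.0347). In wild type it read 10.85, 10.79, 10.88, 10.99 and 10.90 in g, against 10.72, 10.54, 10.56, 10.45 and 10.40 in sc (difference 0.35, adjusted p = 0.0042). In each genotype all g arrays lay above all sc arrays.

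The second of the 3 subunit c genes, Atp5g3, went the other way. It read 10.26, 10.21, 10.32, 10.21 and 10.34 in KO g, against 10.64, 10.73, 10.54, 10.62 and 10.43 in KO sc (difference -0.33, limma adjusted p = 0.026), and it differed by -0.54 in wild type (adjusted p = 9.93e-05). Atp5g1, the remaining gene, differed by 0.05 in KO and -0.17 in WT and was not called.

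Among knockout samples fewer members were called between the tissues. In KO g against KO sc, 7 of 85 members were lower and 1 was higher, with 1.27% of all genes called lower and 2.87% higher, and the median difference was -0.15. The 7 were Ndufv1 (-0.36), Ndufb7 (-0.36), Ndufa11 (-0.33), Atp5g3 (-0.33), Ndufb2 (-0.30), Ndufs4 (-0.29) and Atp5b, the catalytic β subunit gene (-0.25), and all 7 were among the 63 of wild type. Ndufa11, for example, read 8.36, 8.38, 8.34, 8.42 and 8.32 in KO g, against 8.68, 8.77, 8.57, 8.76 and 8.66 in KO sc, without overlap. Ndufb7, an accessory subunit gene of the membrane arm of complex I, read 7.96, 7.88, 7.90, 7.79 and 7.69 in KO g, against 8.20, 8.21, 8.26, 8.21 and 8.15 in KO sc. Ndufb2, of the same arm, read 8.17, 8.05, 8.23, 8.22 and 8.25 in KO g, against 8.46, 8.54, 8.46, 8.55 and 8.39 in KO sc. In each of the 7 genes all g arrays lay below all sc arrays. Of the 63 genes lower in WT g, 62 were below 0 in KO as well, and all 63 had the smaller difference in KO. These 63 were picked by their WT difference, which by itself favours a smaller one in KO. Over all 85 members, 77 had the difference of smaller size in KO. Whether the 2 genotypes differ in this respect is the same interaction term, which called 0 members.

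Over the 85 members the differences in KO and WT correlated with r = 0.603, which is a description across genes measured on the same arrays. Over all genes r was 0.634. The count of 7 was not stable to single arrays: it was 3 without the array sc300KO, 2 without sc306KO, and 4 without sc317KO, sc318KO, sc320KO, g300 KO, g306 KO, g318 KO, sc287WT or g309 WT. Atp5g2 lost its call in KO without sc300KO, sc306KO, sc318KO, sc320KO, g306 KO, g317 KO or g320 KO.

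**Figure D4:**
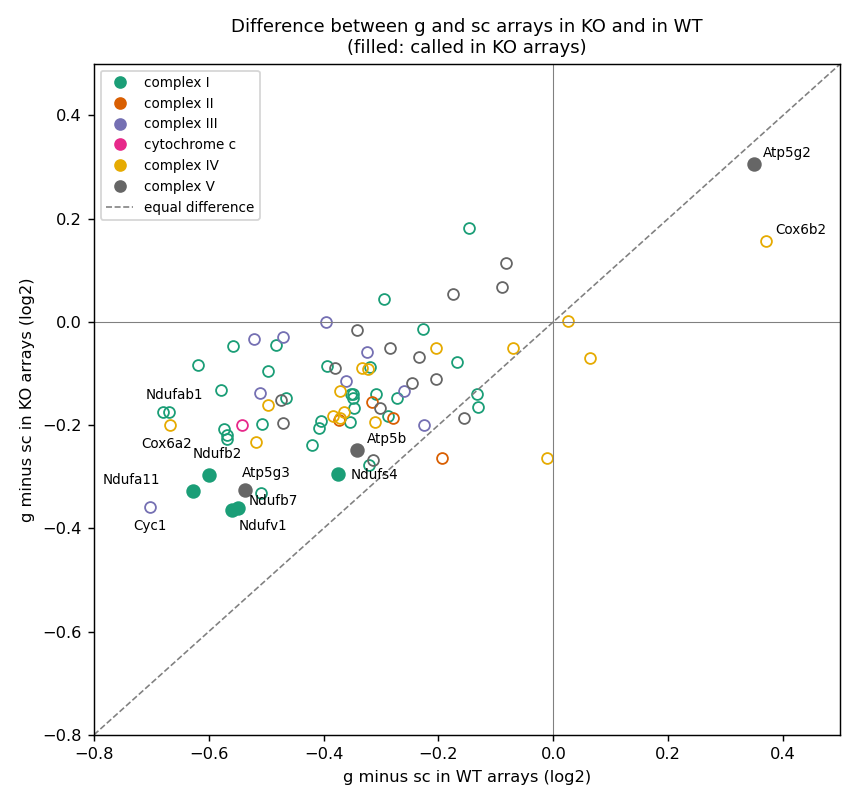
Difference between g and sc arrays (log2) in KO (y axis) against the same difference in WT (x axis) for the 85 genes, coloured by complex; filled points were called in KO and the dashed line marks equal differences. Most points lie left of 0 and above the line, that is, they are lower in g with the smaller difference in KO, and Atp5g2 lies alone among the called genes at the upper right.

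The macrophage markers were higher in g than in sc in both genotypes, with 14 of 19 called in KO and 17 of 19 in WT. Of 18 adipocyte markers, 15 were called lower in WT g than in WT sc, with a median difference of -0.58. In KO g against KO sc 0 of the 18 were called. There 2 of 18 were above 0, 7 had an unadjusted p below 0.05 (limma) and the median was -0.21. With either mean as a covariate 0 members were called in WT, with medians of -0.37 for macrophage and -0.34 for adipocyte markers. Of all genes 29 were then called higher and 11 lower with the macrophage mean, and 60 higher and 12 lower with the adipocyte mean. With hepatocyte, lymphocyte and muscle marker means together as covariates 13 members were called lower in WT g with a median of -0.28, while 469 of all genes were called lower and 955 higher. Without the 4 arrays of high skeletal muscle markers, a tissue rich in respiratory chain transcripts, 50 members were lower and 2 were higher. Of 15 brown fat markers, Cox7a1 and Cox8b among them, 7 were called lower in WT g than in WT sc (median -0.96). In KO g against KO sc 4 were called lower (median -0.45). Of 9 endothelial markers, 3 were called lower in WT g than in WT sc, and 0 in KO g than in KO sc. The part of other cells in these differences was not tested.

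**Figure D5:**
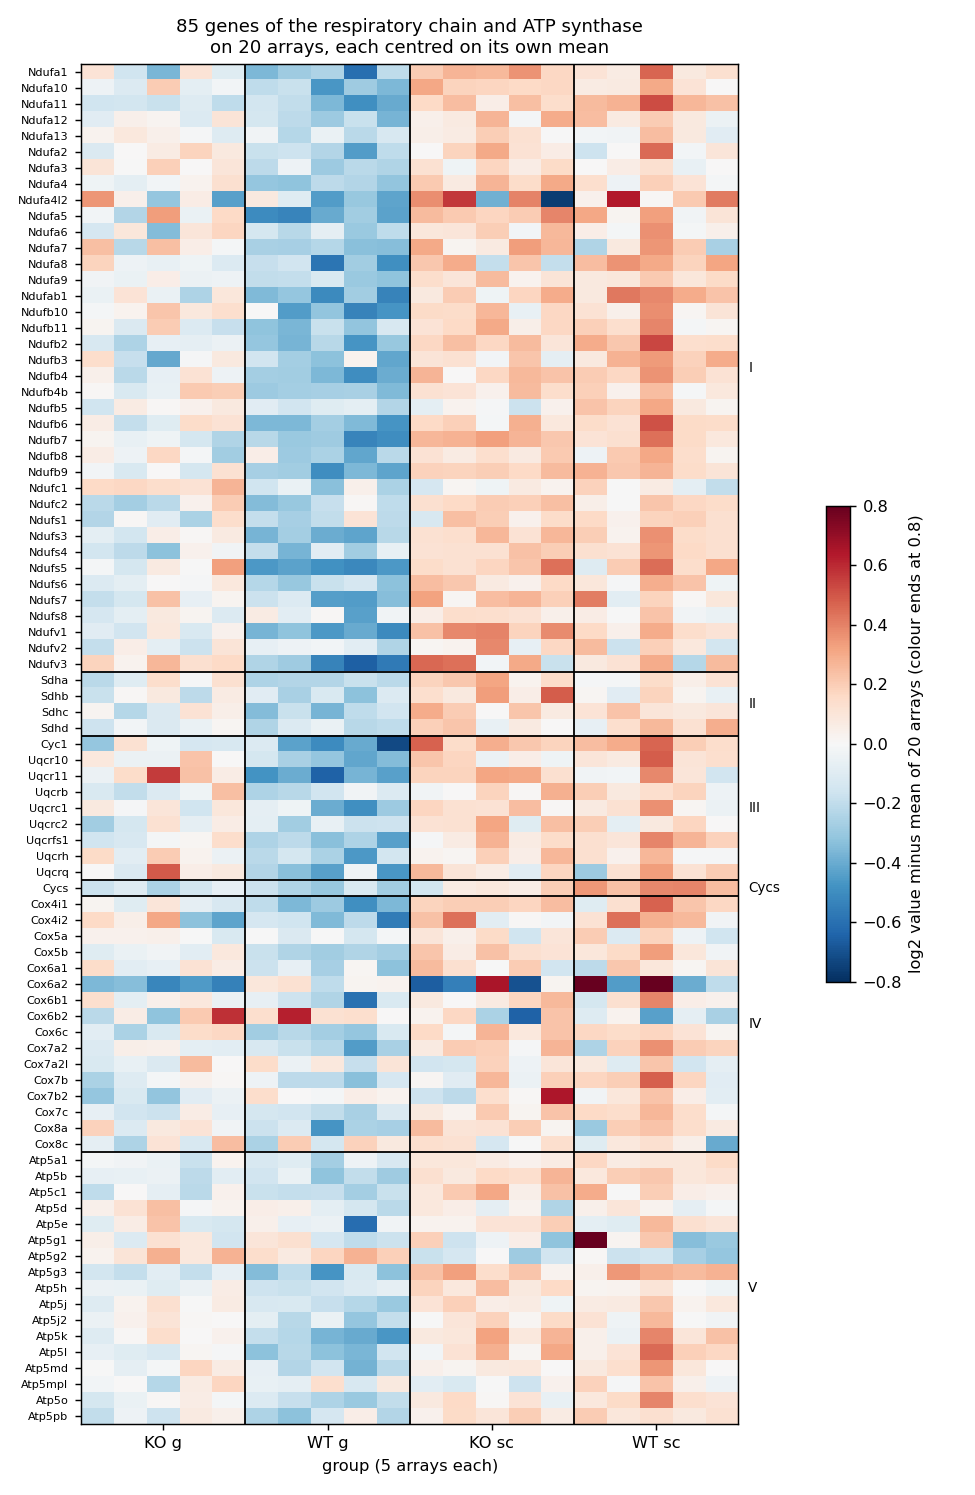
Log2 values of the 85 genes (rows, by complex, named at the left) on the 20 arrays (columns, 5 each of KO g, WT g, KO sc and WT sc), each gene minus its mean over the 20 arrays, with red above and blue below. WT g is blue in most rows, the third column of WT sc (sc307WT) is the reddest, and Cox6a2, Ndufa4l2 and Cox6b2 vary from array to array unlike the rows around them.

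Within the groups, the members tended to deviate together. After the group means were removed, the mean pairwise correlation over 20 arrays was 0.168 for all 85 members, 0.188 within complex I, 0.201 within complex III, 0.131 within complex V and -0.015 among the 4 genes of complex II, against 0.005 over all genes. These correlations share the arrays, their depth of signal and their mix of cells, and are descriptions. Cox5b followed the mean of the other members most closely (r = 0.779), and Ndufa4l2 least (r = -0.381).

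Other genes of mitochondrial energy metabolism were read from lists chosen with earlier results of these data known. Of 16 genes of pyruvate dehydrogenase and the citric acid cycle, 4 were higher in KO g (Suclg2 0.45, Fh1 0.29, Idh3a 0.28 and Mdh2 0.27) and 0 were lower. Of the same 16, 15 were lower in WT g against WT sc and 5 in KO g against KO sc. Of 44 assembly factor genes, 6 were higher in KO g, among them Ndufaf3 (0.46) for complex I, Uqcc3 (0.41) for complex III and the copper chaperone gene Cox17 (0.35) for complex IV, and 12 were lower in WT g against WT sc. Of 76 mitochondrial ribosomal protein genes, 8 were higher in KO g, such as Mrps7 (0.37) and Mrpl51 (0.36), and 28 were lower in WT g against WT sc. These counts are of calls. Over all genes 5.01% were called higher in KO g against WT g. In g against sc, 8.48% of all genes were called lower in WT and 1.27% in KO. None of these lists had a called gene in KO sc against WT sc. There 5 of the genes in the 3 lists had an unadjusted p below 0.05, against 2017 of all 19505 genes.

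Of 18 regulators of mitochondrial gene expression, 10 were above 0 in KO g against WT g and 1 was called higher, a share near the 5.01% of all genes. It was Nrip1, which codes for the corepressor RIP140 (0.56, limma adjusted p = 0.0165). Ppargc1a, which codes for PGC-1α, differed by 0.26 in g (adjusted p = 0.393) and by 0.49 in sc (adjusted p = 0.246), and it was lower in KO g than in KO sc (-0.67, adjusted p = 0.0282). Tfam, the gene of the mitochondrial transcription factor A, differed by -0.41 in g (adjusted p = 0.104), Nrf1 by -0.29 (adjusted p = 0.131) and Gabpa by -0.07 (adjusted p = 0.721). The 2 excluded isoform genes, Cox7a1 and Cox8b, both known from brown fat and muscle, were lower in WT g than in WT sc, with differences of -0.98 (limma, adjusted p = 0.0425) and -1.18 (adjusted p = 0.00857). In WT sc, Cox7a1 was highest on the 2 arrays with high skeletal muscle markers, at 8.70 and 7.43, against 6.30 to 6.44 on the other 3. In KO sc it was not: sc317KO and sc320KO, with high muscle markers, read 6.71 and 6.57, within the 6.40 to 6.74 of the others.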

How the data were processed

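RNA of 20 samples was labelled with biotin and hybridised to 1-colour GeneChip arrays, per the labels' protocols. The deposited values table holds 1 log2 value per probe and array, and the submitters' processing notes name RMA and limma without versions. The array annotation gave 1 symbol to 19572 of 28846 probes. Several probes shared a symbol in 55 genes, of which the brightest on average was kept, leaving 19505 genes. The 6704 control-type probes stayed out.

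From there, limma 3.58.1 in R 4.3.3 fitted 1 mean per group on all 20 arrays (16 residual degrees of freedom) with no further scaling, followed by eBayes and Benjamini-Hochberg adjustment over all genes, and was tested on simulated data. A call is an adjusted p below 0.05, differences are KO minus WT or g minus sc, and the number of arrays limits the precision. Members and lists were chosen with earlier results of these data known. Full values were given for up to 3 called members with the smallest p per complex and direction in the knockout comparisons. They were also given for the 5 largest called differences each way between tissues. For isoform pairs differences were given, with array values for Cox4i1 and Cox6a2 only. Cycs, Sdha and the transcripts named for contrast were picked after their values were seen. Alternatives were 14 other settings and 20 fits without 1 array.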

Additional observations from a re-analysis of the deposited data

Results flagged for a closer look

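Each of the 85 members and 5 other genes named with values (Olfm2, Cox7a1, Cox8b, Ppargc1a and Tfam) were examined in each group for 1 array far from the other 4 by Dixon's test, together with the means over the complexes. Of the 384 groups of values, 24 stood out, which is 6.25%, and chance alone marks about 5% of such groups. Of the 24, 10 were high on the same WT sc array, sc307WT. They were Ndufa1 at 8.2804 (7.88 to 7.94 on the other 4 WT sc arrays), Ndufa6 at 8.6922 (8.31 to 8.38), Ndufa11 at 9.0403 (8.76 to 8.80), Ndufb6 at 8.7089 (8.31 to 8.35), Ndufb7 at 8.3748 (8.02 to 8.09), Ndufb10 at 7.4221 (7.07 to 7.17), Ndufs4 at 8.6551 (8.41 to 8.46), Uqcr10 at 9.0574 (8.64 to 8.71), Atp5o at 10.057 (9.75 to 9.82) and the mean over the 38 genes of complex I at 9.1774 (8.96 to 8.99). That array also had a skeletal muscle marker mean of 8.77, whose part in these values was not tested.

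Of the WT g arrays, g308 WT was low for Atp5c1 at 10.1534 (10.23 to 10.25 on the others), Atp5e at 6.3397 (6.88 to 6.99) and Ndufa2 at 8.1197 (8.33 to 8.40), and high for Ndufs1 at 8.5925 (8.22 to 8.30). Ndufv2 was low on g309 WT at 8.5059 (8.66 to 8.72), and Cox6b2, a testis isoform, was high on g287 WT at 5.7513 (5.13 to 5.26). Among the KO g arrays, Ndufa8 was high on g300 KO at 9.5807 (9.30 to 9.37) and Ndufb5 low there at 8.4907 (8.66 to 8.73). On g317 KO, Ndufa9 was high at 8.6782 (8.57 to 8.60) and Ndufa10 at 9.5802 (9.26 to 9.35). Atp5b was low on g318 KO at 11.6136 (11.74 to 11.77) and Cox5a on g320 KO at 8.9137 (9.03 to 9.07). In sc, Ndufa10 was high on sc300KO at 9.6865 (9.54 to 9.55) and Sdhc on sc287WT at 8.9067 (8.76 to 8.79).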

How the results depend on the processing

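The members called higher in KO g against WT g, 26 in the main analysis, numbered 14 with the hepatocyte mean as a covariate, 15 with the hepatocyte, lymphocyte and muscle means, and 0 without the hepatocyte-high arrays (marker mean over 7), with the macrophage mean or with the adipocyte mean. They numbered 16 to 29 when 1 array was left out. Of members called lower there were 0 in the main analysis and 1 with the 2 groups fitted alone or without the muscle-high arrays. For g against sc in WT, the members called lower (63) numbered 13 with the 3 means (median -0.28, main -0.35) and 0 with the macrophage or adipocyte mean. The member called higher (1) became 0 without the hepatocyte-high arrays or with the macrophage or adipocyte mean, and 2 without the muscle-high arrays.

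For g against sc in KO, the members called lower (7) numbered 0 with the groups alone or without the hepatocyte-high arrays, 2 with the macrophage mean or without the lymphocyte-high arrays, 3 with the hepatocyte or adipocyte mean, 4 with the 3 means or without the muscle-high arrays, and 2 to 9 with 1 array left out. The member called higher became 0 with quantile normalisation, the groups alone, the hepatocyte, macrophage or adipocyte mean or without the hepatocyte-high arrays, and numbered 0 to 1 with 1 array left out. The median was -0.21 without the hepatocyte-high arrays (main -0.15), and that of the interaction was 0.13 with the 3 means (main 0.21). The causes were not tested. Among the named members, 579 of 714 recomputed calls were kept, 135 were lost and 0 changed sign. Leaving genes with a mean below 5 out gave 32 members higher in KO g.

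With the replicate block by the number in the titles, 26 members were higher in KO g, 64 lower in g of WT and 0 called in sc, and no call count moved by over 1.5 times. The number is not known to mark a mouse: same-numbered g and sc arrays deviated together with r from -0.461 to 0.142, 2 of 10 pairs passed 0.1, and 3 sc arrays correlated best with their own number.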
